A study of Mus musculus with 11 samples.

Results

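The miR-23/27/24 clusters are a pair of related gene clusters whose hairpins are cut from shared primary transcripts. The 3p arms mmu-miR-23a-3p, mmu-miR-23b-3p, mmu-miR-24-3p, mmu-miR-27a-3p and mmu-miR-27b-3p (mmu for mouse, left out from here on) were followed across 11 small RNA libraries; these are 5 of the 2304 features in the count table, of which 1592 are mature miRNAs. The clusters were chosen by the measured levels of miR-23, which differed between libraries of 2PN (pronuclear) embryos, so those 2PN levels are given as a description, with no test. All 5 had rows in the table, and all 5 passed the low-count filter of the sperm test.

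The libraries came from 2PN embryos made by injecting sperm of Dicer conditional knockout (cKO) males, of Drosha cKO males or of wild-type (WT) males, from superovulated WT oocytes, and from cauda epididymal sperm of Dicer cKO, Drosha cKO and WT males. There was 1 library for each 2PN group and for oocytes, against 2 for Dicer cKO sperm, 3 for Drosha cKO sperm and 2 for WT sperm. All mice were adults on a C57BL/6 background, and the knockouts were germline deletions made with floxed alleles and Cre; no source used here gives the Cre driver or how many animals each library pooled. Nothing in the labels says that libraries of a group came from separate males, so the p-values rest on a spread between libraries that may be technical.

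Drosha releases microRNA hairpins from nuclear transcripts, and Dicer trims the exported hairpin to the mature duplex. The miR-23/27/24 clusters are known from blood vessels, blood cells, muscle and fat. miR-23 represses glutaminase in human lymphoma cells, miR-24 represses cell cycle genes in human cells, and miR-27 represses the fat cell regulator PPARG. In mouse oocytes miRNAs are known to be present but to repress their targets weakly.

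The sequences below show how little the miR-27 forms differ and which seeds the members carry. Mature sequences of 4 of the 5 members were found by name in RefSeq (GRCm38.p6, the assembly of mm10, which the submitters' processing notes name), with capitals marking the seed, bases 2 to 8, that pairs with targets.
miR-23a-3p: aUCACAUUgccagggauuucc
miR-24-3p: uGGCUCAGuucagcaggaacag
miR-27a-3p: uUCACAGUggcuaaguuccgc
miR-27b-3p: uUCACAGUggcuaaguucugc
miR-27a-3p and miR-27b-3p have 1 seed and differ by 1 substitution, C19U, counted from 1 at the 5′ end with miR-27a first. Features outside the clusters that carry the miR-24 seed were miR-5124b, miR-6369 and miR-6413, with 3, 1 and 1 reads over all libraries. No other listed feature with a RefSeq sequence shared the seed of miR-27 or of miR-23a-3p. RefSeq held a sequence for 1333 of the 1592 listed miRNAs, and the others could not be searched. miR-23b-3p had no sequence there, so its seed could not be compared with that of miR-23a-3p.

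One cluster lies on the plus strand of chromosome 8, where Mir23a, Mir27a and Mir24-2 span 404 bases (chr8:84208518-84208921). The other lies on the plus strand of chromosome 13, where Mir23b, Mir27b and Mir24-1 span 792 bases (chr13:63300484-63301275) inside the annotated span of the protein-coding gene Aopep. Mature miR-23a-3p is at chr8:84208563-84208583, miR-27a-3p at chr8:84208727-84208747 and miR-27b-3p at chr13:63300760-63300780. miR-24-3p is encoded by both clusters, at chr8:84208875-84208896 and chr13:63301251-63301272, so its reads cannot be assigned to either. How reads matching more than 1 form were counted is not stated, and reads of the near-identical a and b forms may have been split or shared between them.

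Listed reads, those counted to any of the 2304 features, numbered 2951 in the 2PN library from Dicer cKO sperm, 8967 in that from Drosha cKO sperm, 3243 in that from WT sperm and 5530 in oocytes. Sperm libraries held 12003 to 278890 listed reads, and Drosha cKO replicates 2 and 3 were the shallowest. Levels are given as percent of listed reads or as CPM (counts scaled to 1000000 listed reads). Between different miRNAs they describe reads, since how well each sequence is captured in a library was not measured. Intervals on single libraries are 95% exact (Clopper-Pearson) intervals; for a count of 0 the limit given is the share that 3 reads would make, unless the exact bound is named. Both cover counting error only.

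By reads, the clusters were represented almost wholly by miR-23 in the shallow oocyte and 2PN libraries, whereas the deeper sperm libraries held all 5 miRNAs. miR-23b-3p ranked 5 in the 2PN library from Dicer cKO sperm, 7 in that from Drosha cKO sperm, 4 in that from WT sperm and 4 in oocytes among all features by reads. In the sperm libraries its rank lay between 68 and 97.

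**Figure D1:**
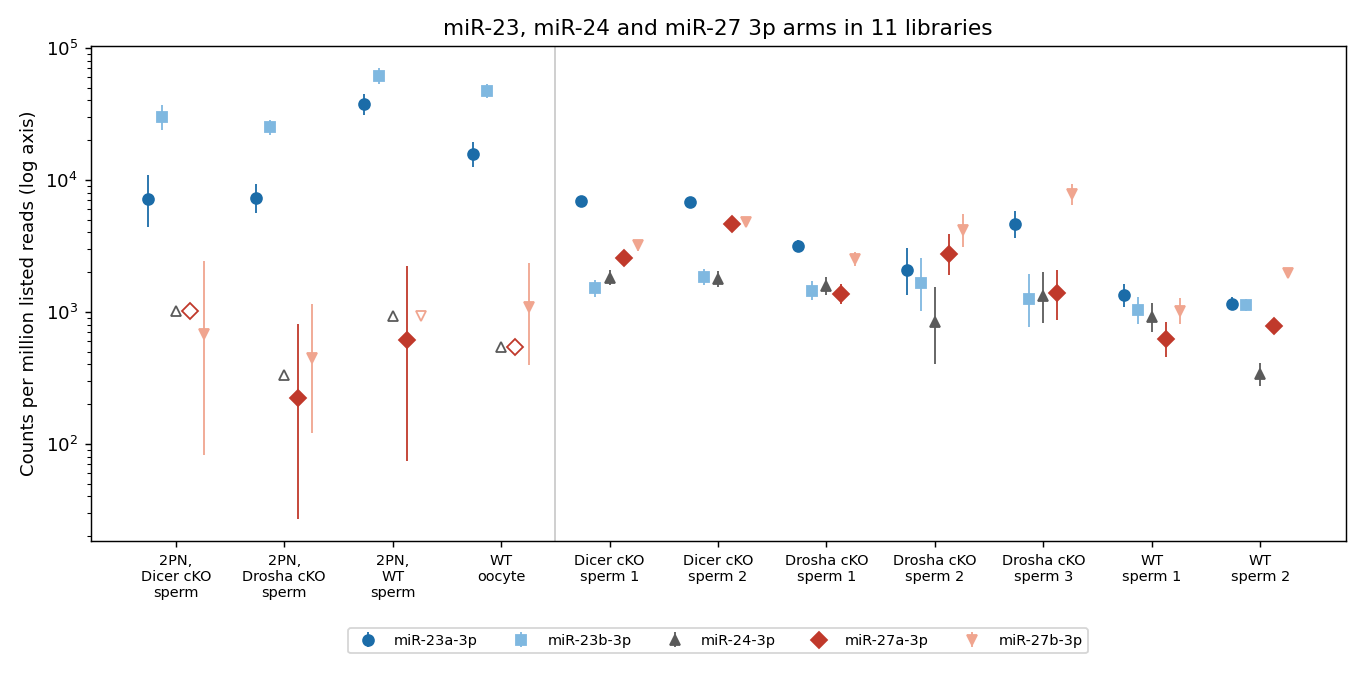
Level of each miRNA in every library, in CPM on a log axis. Bars are 95% exact intervals for counting error, and open symbols mark libraries with 0 reads, drawn at the level that 3 reads would give. Both miR-23 forms stand above the other miRNAs in the 4 libraries left of the grey line, at 7116 to 61055 CPM.

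miR-23b-3p had 88 reads (2.98% of listed reads, interval 2.40 to 3.66) in the 2PN library from Dicer cKO sperm, 226 (2.52%, 2.21 to 2.87) in that from Drosha cKO sperm, 198 (6.11%, 5.31 to 6.99) in that from WT sperm and 260 (4.70%, 4.16 to 5.29) in oocytes. miR-23a-3p had 21 reads (0.712%, 0.441 to 1.09), 65 reads (0.725%, 0.560 to 0.923), 121 reads (3.73%, 3.11 to 4.44) and 87 reads (1.57%, 1.26 to 1.94) in the same 4 libraries in that order. For both forms the 2PN library from WT sperm was the highest, and both 2PN libraries from knockout sperm lay below oocytes.

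miR-23a-3p was 5.24-fold lower (interval 3.28 to 8.78) in the 2PN library from Dicer cKO sperm than in the one from WT sperm, and 5.15-fold lower (3.78 to 7.07) in the one from Drosha cKO sperm. miR-23b-3p was 2.05-fold lower (1.58 to 2.66) in the 2PN library from Dicer cKO sperm than in the WT one, and 2.42-fold lower (1.99 to 2.94) in the Drosha one. These are the values that chose the miRNAs, each from 1 library without a replicate. Only 8 features reached 50 reads in either library of the Dicer comparison and 13 in the Drosha one. Of these, 37.5% were at least 2-fold lower and 12.5% higher for Dicer, and 23.1% lower and 15.4% higher for Drosha, with a floor of 3 reads. The lower ones numbered 3 in each comparison, and 2 of these were the miR-23 forms. These shares are therefore made up mostly of the members and give no separate background. In the Dicer comparison miR-23a-3p reached 50 reads in the WT library alone (121 reads, against 21).

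The sizes depended on what the reads were scaled to. With the authors' RPM (the same reads scaled to a larger per-library total), the ratio of the 2PN library from Dicer cKO sperm to the WT one was 0.100 for miR-23a-3p and 0.256 for miR-23b-3p. For Drosha the RPM ratios were 0.383 and 0.814, so that miR-23b-3p was then close to its WT value. Listed reads were 0.196%, 0.737% and 0.374% of that total in the 2PN libraries from Dicer cKO, Drosha cKO and WT sperm. miR-30c-5p, the leading feature, took 38.2%, 29.4% and 22.1% of listed reads in these libraries. With miR-30c-5p left out of the totals, the ratios to WT were 0.240 and 0.615 for Dicer and 0.214 and 0.455 for Drosha, for miR-23a-3p and miR-23b-3p in that order.

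Between the 2PN libraries of the knockouts, miR-23a-3p differed by less than counting error (Dicer over Drosha 0.982, interval 0.570 to 1.63), and so did miR-23b-3p (1.18, 0.914 to 1.52). With RPM these ratios were 0.261 and 0.315. Of 13 features with 50 reads or more in either library, 7.69% were at least 2-fold higher and 23.1% lower, none of them a member. Set against oocytes, the 2PN library from WT sperm was 2.37-fold higher for miR-23a-3p (1.79 to 3.16) and 1.30-fold higher for miR-23b-3p (1.07 to 1.57); the RPM ratio of miR-23b-3p was 0.993. Of 14 features at this depth, 7.14% were at least 2-fold higher in the 2PN library, which is 1 feature, miR-23a-3p, and as many were lower.

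miR-24-3p was not read in any oocyte or 2PN library, although each of its hairpins lies in a cluster with a miR-23 hairpin. With 3 reads as the limit, a count of 0 allows a share of listed reads of up to 0.102% in the 2PN library from Dicer cKO sperm, 0.0335% in that from Drosha cKO sperm, 0.0925% in that from WT sperm and 0.0542% in oocytes. In WT sperm miR-24-3p made up 0.0913% and 0.0337% of listed reads, so the oocyte limit lay between the WT sperm replicates. The exact upper bound of the CPM ratio of oocytes to WT sperm was 0.751 for replicate 1 and 2.02 for replicate 2, so that on CPM oocytes lay lower beyond counting error against replicate 1 alone. With RPM the bounds were 0.17 and 0.0982, lower against both, so the comparison depends on the scaling.

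Measured against the other members the 4 libraries stood apart from sperm. Of the reads of all 5 miRNAs, miR-24-3p made up 0 of 111, 0 of 297, 0 of 321 and 0 of 353 in 2PN libraries from Dicer cKO, Drosha cKO and WT sperm and in oocytes, which by the same limit of 3 reads allows shares of up to 2.70%, 1.01%, 0.935% and 0.850%. In sperm its share ran from 6.26% to 18.5% over the 7 libraries. miR-27a-3p and miR-27b-3p together made up 1.80%, 2.02%, 0.623% and 1.70% of the 5 miRNAs' reads in the same 4 libraries, on 2 to 6 reads. In sperm they made up 33.4% to 60.1%. No value of either share in oocytes or 2PN embryos came near the sperm range, and this measure does not depend on the scaling between libraries. In these 4 libraries, however, miR-23 made up 98.0% to 99.4% of the reads of all 5, and its 2PN counts chose the members. Low shares of miR-24-3p and miR-27 follow from that much miR-23. They do not show that the levels of miR-24-3p and miR-27 were lower than in sperm.

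**Figure D2:**
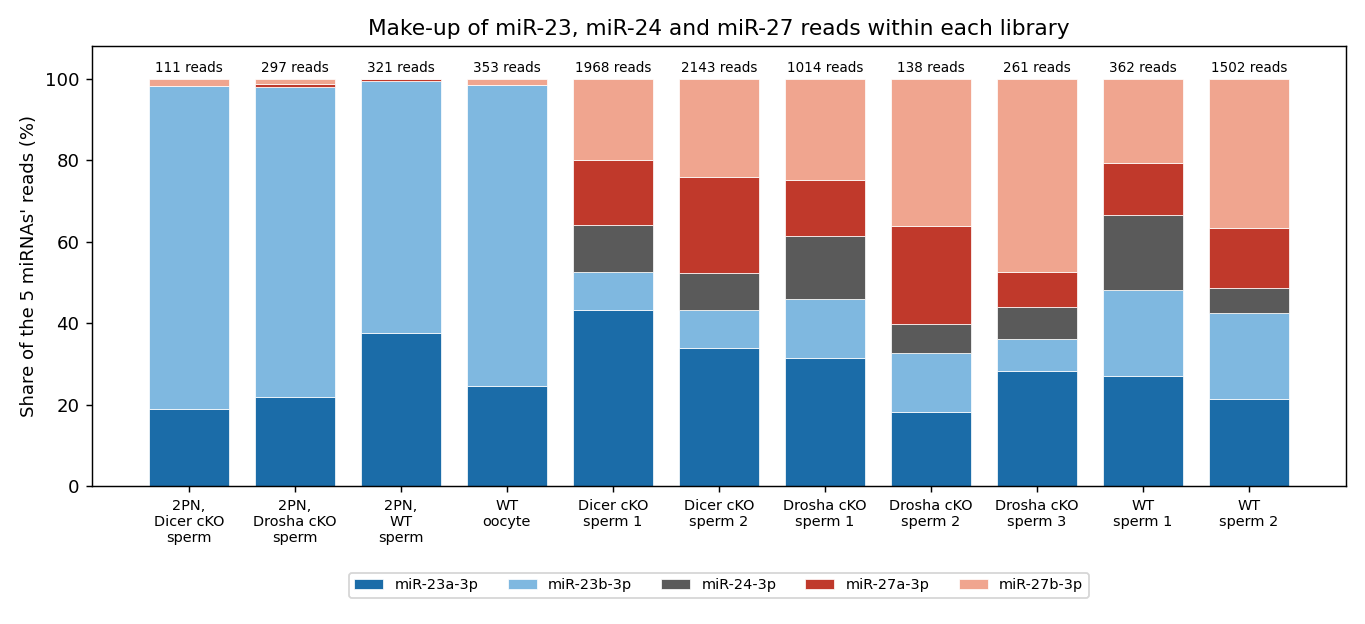
Share of each miRNA in the reads of all 5, one bar per library, with the number of reads above each bar. miR-23a-3p and miR-23b-3p make up 98.0% to 99.4% in the 4 oocyte and 2PN libraries and 32.6% to 52.6% in the 7 sperm libraries.

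The paralogs of miR-27 were at the limit of counting in these libraries. miR-27b-3p had 2, 4 and 0 reads in the 2PN libraries from Dicer cKO, Drosha cKO and WT sperm and 6 reads in oocytes. miR-27a-3p had 0, 2 and 2 reads in the 2PN libraries and 0 in oocytes. No difference between these libraries was detectable for either form at this depth.

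Between oocytes and WT sperm the order of levels beyond counting error depended on the scaling, except for miR-23b-3p, which was higher in oocytes by CPM and by RPM. Listed reads were 0.489% of the authors' total in oocytes, against 2.16% and 10.1% in WT sperm replicates 1 and 2. By CPM miR-23b-3p was 45.4-fold (35.0 to 59.4) and 41.6-fold (35.2 to 49.2) higher in oocytes than in these replicates, and by RPM 10.3-fold (7.94 to 13.5) and 2.02-fold (1.71 to 2.39). miR-23a-3p was 11.8-fold (8.72 to 15.9) and 13.6-fold (10.6 to 17.3) higher by CPM. By RPM it was 2.67-fold higher (1.98 to 3.6) than in replicate 1 but stood at 0.663 (0.517 to 0.842) of replicate 2, so no direction is given for it. miR-27b-3p, at 1085 CPM in oocytes against 1022 and 1979 CPM in WT sperm, differed by less than counting error from each on that scale (ratios 1.06, interval 0.378 to 2.42, and 0.548, 0.20 to 1.20). Its RPM ratios were 0.241 (0.0856 to 0.549) and 0.0267 (0.00974 to 0.0584), lower in oocytes than in both. miR-27a-3p had 0 reads in oocytes, against 46 and 219 in WT sperm. The exact upper bounds of its ratio were 1.11 and 0.857 by CPM, lower beyond counting error against replicate 2 alone. By RPM they were 0.251 and 0.0417, lower against both. Of 203 features reaching 50 reads in any of these libraries, 16.7% were at least 2-fold higher by CPM in oocytes than in both WT sperm libraries and 33.5% lower.

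In sperm the clusters were a minor component of listed reads. The 5 miRNAs summed to 1.60% and 1.98% of listed reads in Dicer cKO sperm, 1.0%, 1.15% and 1.64% in Drosha cKO sperm, and 0.493% and 0.539% in WT sperm. On this scale neither knockout overlapped WT. A share of listed reads also depends on what else is listed. Over the same libraries 8 male germ cell miRNAs of the miR-34, miR-449 and X-linked testis groups made up 0.838% and 0.866% in Dicer cKO, 1.42% to 2.48% in Drosha cKO and 18.1% and 16.4% in WT sperm. The fits below use TMM factors. In the main fit the median log2 change of all tested features was near 0 (0.03 for Dicer and 0.05 for Drosha against WT).

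The question put to the sperm libraries was which miRNAs depend on Dicer or on Drosha in the male germ line. In Dicer cKO sperm 1 of the 5 members rose, miR-23a-3p, and 4 did not pass the test (edgeR quasi-likelihood test with Benjamini-Hochberg adjustment over 335 features, threshold 0.05). Over all tested features 47.2% were called, 16.1% higher and 31.0% lower, so a share of 1 in 5 is near the background for higher calls. The median log2 change was 1.02 for the 5 members and 0.03 for all tested features. CPM values did not overlap, with Dicer cKO higher, for all 5 members, which held for 46.3% of all tested features, with 34.9% lower without overlap. By RPM this held for 3 of 5 members, miR-23a-3p, miR-24-3p and miR-27a-3p, and for 43.6% of all tested features, with 25.4% lower.

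miR-23a-3p stood at 6919 and 6741 CPM in Dicer cKO sperm, against 1336 and 1155 CPM in WT sperm. By CPM both Dicer cKO libraries were far above both WT libraries, and replicates lay close together. By RPM the Dicer cKO libraries (306 and 473 RPM) still lay above the WT ones (28.8 and 116 RPM). Replicates lay further apart on that scale, so their closeness depends on the scaling. The fitted log2 change was 1.76 (SE 0.56, interval 0.58 to 2.95, edgeR adjusted p = 0.0161). With library totals in place of TMM factors the change was 2.46, but the median of all tested features then moved to 0.62; relative to that median the change was 1.73 with TMM factors and 1.84 with library totals. The call was lost when either Dicer cKO library was left out (edgeR adjusted p = 0.215 without replicate 1 and 0.105 without replicate 2) and when either WT library was (0.0977 without replicate 1 and 0.0514 without replicate 2), with log2 changes of 1.41 to 1.94 over all libraries left out in turn.

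miR-27a-3p, its neighbour on chromosome 8, stood at 2561 and 4651 CPM in Dicer cKO sperm, against 627 and 785 CPM in WT sperm. Its log2 change of 1.58 (SE 0.64, interval 0.22 to 2.93) just missed the threshold (edgeR adjusted p = 0.0529) and passed it under 9 of 18 alternative settings. miR-24-3p had 1821 and 1785 CPM in Dicer cKO sperm, against 913 and 337 CPM in WT sperm. Its log2 change was 1.02 (SE 0.61, interval -0.27 to 2.31, edgeR adjusted p = 0.18).

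The chromosome 13 forms had smaller fitted changes than the chromosome 8 forms. miR-27b-3p had 3195 and 4799 CPM in Dicer cKO sperm, against 1022 and 1979 CPM in WT sperm, with a log2 change of 0.56 (SE 0.65, interval -0.82 to 1.94, edgeR adjusted p = 0.513). miR-23b-3p had 1504 and 1840 CPM in Dicer cKO sperm, against 1036 and 1129 CPM in WT sperm. Although its CPM was higher in both Dicer cKO libraries, its log2 change with TMM factors was -0.12 (SE 0.59, interval -1.36 to 1.13, edgeR adjusted p = 0.875). It was 0.62 with library totals and 0.52 with the authors' divisor, and relative to the median of all tested features 0.01 and -0.36, so no direction is given for it.

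Over the same libraries markers of other cell types were also higher in Dicer cKO sperm. All 5 epithelial markers of the miR-200 group, 4 of 5 blood cell markers, both endothelial markers (miR-126a-3p and miR-126a-5p) and 2 of 5 stromal markers were called higher. Epithelial markers summed to 13% and 16% of listed reads in Dicer cKO sperm and 1.57% and 1.81% in WT sperm, blood markers to 4.98% and 4.8% against 0.511% and 0.441%, and stromal markers to 2.61% and 1.87% against 0.795% and 0.315%. Endothelial markers summed to 0.152% and 0.252% in Dicer cKO sperm, against 0.0177% and 0.0273% in WT sperm. No marker of these lists was at 0 in a sperm library. In bulk RNA a change in the number of such cells and a change in RNA per cell cannot be told apart, and their part in the miR-23a-3p result was not tested.

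In Drosha cKO sperm 0 of the 5 members passed the test by edgeR, also at an unadjusted p under 0.05 and by DESeq2 and limma. Among all tested features 55.2% were called, 22.1% higher and 33.1% lower. The median log2 change was 0.31 for the 5 members and 0.05 for all tested features. CPM values did not overlap, with Drosha cKO higher, for 4 of 5 members, which held for 42.1% of all tested features, with 30.1% lower without overlap. By RPM this held for 0 of 5 members and for 24.5% of all tested features, with 32.2% lower.

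miR-23a-3p had 3160, 2083 and 4648 CPM in Drosha cKO sperm, against 1336 and 1155 CPM in WT sperm; its log2 change was 0.46 (SE 0.51, interval -0.62 to 1.53, edgeR adjusted p = 0.475) and turned to -0.30 without WT replicate 1. miR-27b-3p had 2507, 4166 and 7788 CPM in Drosha cKO sperm, the largest SD of any member in a sperm group (2701 CPM), against 1022 and 1979 CPM in WT sperm (log2 change 0.54, SE 0.61, interval -0.75 to 1.83). The remaining members had log2 changes of 0.31 for miR-27a-3p (interval -0.94 to 1.56), 0.26 for miR-24-3p (-0.94 to 1.46) and -0.57 for miR-23b-3p (-1.73 to 0.58). The intervals reach past a 2-fold change in at least 1 direction for all 5, so a change of that size could have gone undetected at this depth. Without the shallow Drosha cKO replicates 2 and 3, miR-27a-3p stood at -0.23 and miR-27b-3p at -0.48, so no direction is given for them. With library totals alone, which moved the median of all tested features to 1.04, miR-23a-3p, miR-27a-3p and miR-27b-3p were called higher, at 1.41, 1.34 and 1.66. On that scaling 134 of all 335 tested features were called higher. miR-24-3p had 1565, 833 and 1319 CPM in Drosha cKO sperm, the second of these on 10 reads, and overlapped WT.

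Epithelial markers summed to 11.4%, 13.9% and 11% of listed reads in Drosha cKO sperm against 1.57% and 1.81% in WT sperm, and all 5 were called higher. Blood markers summed to 2.13%, 2.17% and 2.44%, stromal markers to 1.69%, 1.08% and 1.39%, and endothelial markers to 0.163%, 0.0916% and 0.157%, with 4 of 5, 0 of 5 and 1 of 2 called higher.

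Between the knockouts, fitted values were higher in Dicer cKO sperm for each member, miR-27b-3p by 0.02 with TMM factors but at -0.26 with library totals alone, and 0 of the 5 passed the test. 0 of all 335 features did so by edgeR (0.00%), against 65 at an unadjusted p under 0.05, 18 by DESeq2 and 2 by limma. For miR-23a-3p the log2 change of Dicer cKO over Drosha cKO was 1.31 (SE 0.49, interval 0.26 to 2.35, edgeR adjusted p = 0.192), and its CPM values did not overlap between the groups. For miR-27a-3p it was 1.27 (SE 0.57, interval 0.05 to 2.48, edgeR adjusted p = 0.237). These 2 members were at an unadjusted p under 0.05; neither was called by DESeq2 or limma. miR-24-3p (0.76), miR-23b-3p (0.46) and miR-27b-3p (0.02) had intervals that include 0. CPM values did not overlap, with Dicer cKO higher, for 2 of 5 members and for 15.2% of all tested features, with 23.9% lower without overlap. By RPM this held for 4 of 5, all but miR-27b-3p, and for 44.5% of all tested features, with 5.67% lower. miR-23a-3p was called without WT replicate 1 (edgeR adjusted p = 0.0169) and without WT replicate 2 (0.0497), and miR-27a-3p without WT replicate 1 (0.0414).

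**Figure D3:**
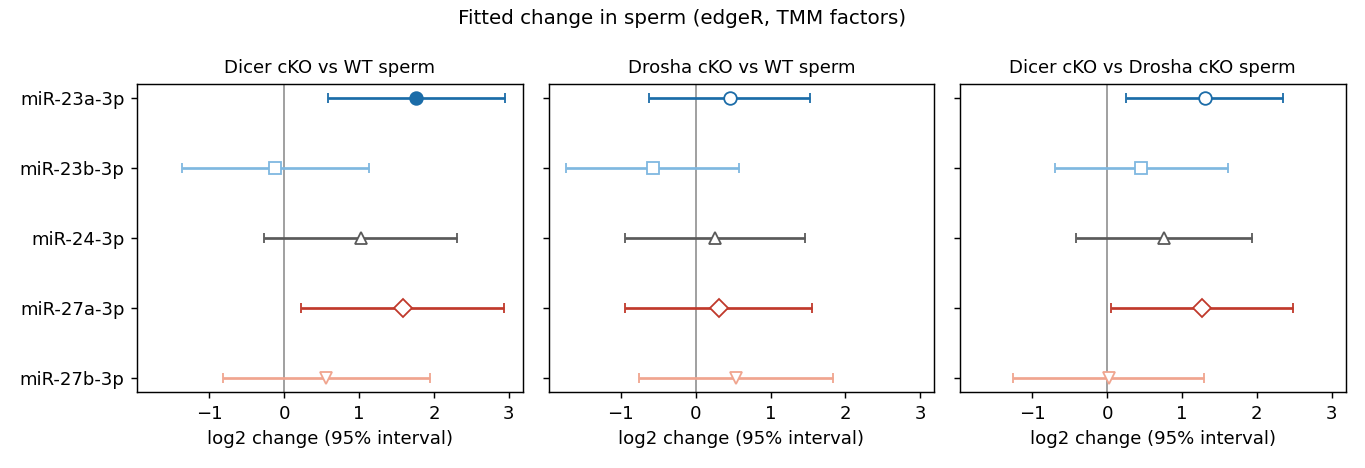
Fitted log2 change of each miRNA in the 3 sperm comparisons, with 95% intervals from edgeR's quasi-likelihood fit. The filled symbol is past the adjusted threshold of 0.05 and open symbols are not; only miR-23a-3p in Dicer cKO against WT sperm, at 1.76, is filled.

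The balance of the paralogs gives a measure that scaling cannot move, since both counts come from 1 library. It still rests on how reads matching both forms were counted, which is not stated. miR-23a-3p made up 82.1% and 78.6% of the reads of miR-23a-3p plus miR-23b-3p in Dicer cKO sperm, 68.6%, 55.6% and 78.7% in Drosha cKO sperm, and 56.3% and 50.5% in WT sperm. Dicer cKO lay above WT in both libraries, while Drosha cKO replicate 2, on 45 reads, overlapped WT. The log2 ratio of miR-23a-3p to miR-23b-3p averaged 2.04 in Dicer cKO sperm and 0.20 in WT sperm. An exact permutation test, two-sided, gave p = 0.333, the smallest that 2 libraries against 2 allow, so the design cannot show this difference at 0.05.

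In oocytes and 2PN embryos the balance was turned towards the chromosome 13 form. miR-23a-3p made up 19.3% (12.3 to 27.9), 22.3% (17.7 to 27.6) and 37.9% (32.6 to 43.5) of miR-23 reads in the 2PN libraries from Dicer cKO, Drosha cKO and WT sperm, and 25.1% (20.6 to 30.0) in oocytes. The interval of the WT 2PN library lay above those of the other 3 libraries, whose intervals overlapped. All 4 values lay below the lowest sperm value of 50.5%. These intervals cover counting error only, in libraries without a replicate. The 2PN shares are built from the same miR-23 counts that chose the miRNAs. The separation of the WT 2PN library is therefore a description and was not tested.

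For miR-27 the chromosome 8 form made up 44.5% and 49.2% in Dicer cKO sperm, 35.3%, 39.8% and 15.1% in Drosha cKO sperm, and 38.0% and 28.4% in WT sperm. Dicer cKO again lay above WT, and here also above Drosha cKO, whose replicate 3 was the lowest. For miR-23 the knockouts overlapped, at 78.6% in Dicer cKO replicate 2 and 78.7% in Drosha cKO replicate 3. The exact permutation p, two-sided, was 0.333 for Dicer cKO against WT and 0.2 for Dicer cKO against Drosha cKO, each the smallest its design allows. In Drosha cKO against WT the exact permutation p was 1 for miR-27 and 0.4 for miR-23, where the smallest possible was 0.2; in Dicer cKO against Drosha cKO it was 0.4 for miR-23. Adjusted by Benjamini-Hochberg over these 6 tests, the exact permutation p was 0.48 or more for each.

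**Figure D4:**
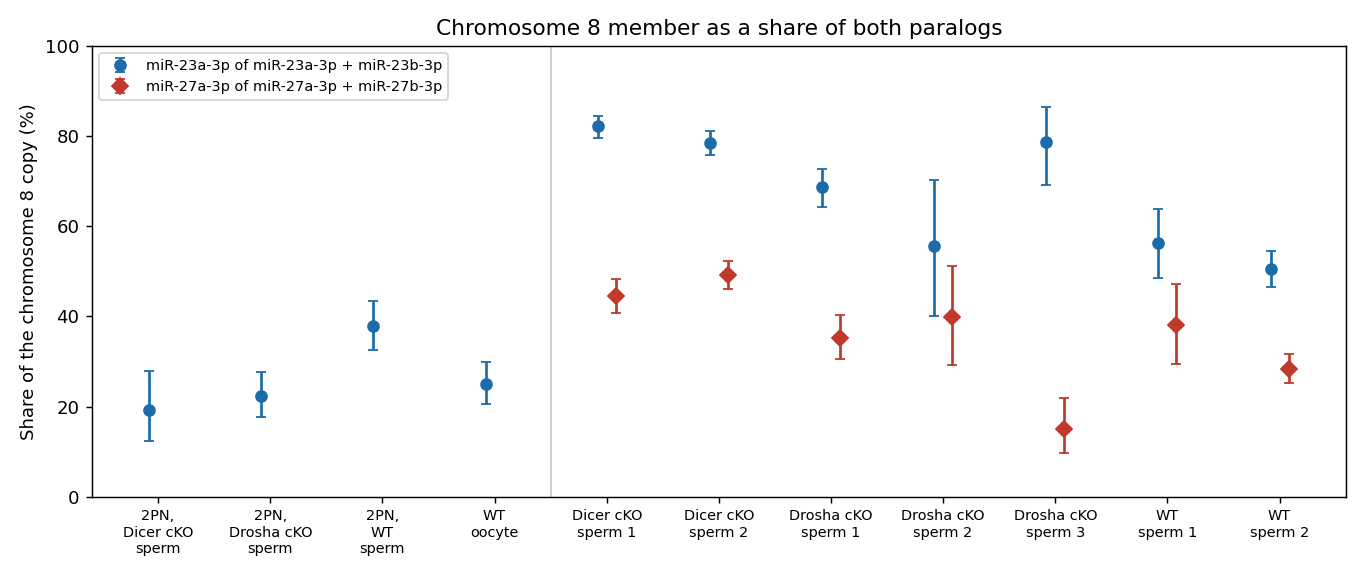
Share of the chromosome 8 form in the reads of both paralogs, for miR-23 (circles) and miR-27 (diamonds), with 95% exact intervals for counting error, shown where at least 40 reads were counted. miR-23a-3p runs from 19.3% to 37.9% left of the grey line and from 50.5% to 82.1% in sperm.

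The other products of the same hairpins were rare. Of 8 such features, the 5p arms of the 6 hairpins and the miR-3074 products of the strand opposite the miR-24 hairpins, 1 passed the low-count filter and 0 were called in any sperm comparison. That one, miR-24-2-5p from chromosome 8, had 12 and 15 reads in Dicer cKO sperm, 10, 1 and 1 in Drosha cKO sperm and 4 and 14 in WT sperm (log2 change 0.42 for Dicer and -0.22 for Drosha against WT). The 5p arms separate the hairpins that share miR-24-3p: miR-24-2-5p had 57 reads over the sperm libraries and miR-24-1-5p, from chromosome 13, had 19. Both had 0 reads in oocytes and 2PN embryos. miR-27a-5p had 1 read in each 2PN library and 2 reads over all sperm libraries.

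Across the libraries the members did not move as 1 unit. Over all 11 libraries the log2 CPM of miR-23a-3p and miR-23b-3p had a Pearson r of 0.80 (Spearman rho 0.90), and that of miR-23b-3p and miR-24-3p one of -0.86 (rho -0.555). Within the 7 sperm libraries all pairs were positive, from 0.42 for miR-24-3p with miR-27b-3p to 0.97 for miR-23b-3p with miR-27a-3p, which come from different clusters. These are descriptions: the points share the split between sperm and the shallow oocyte and 2PN libraries.

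Among 119 other features with a read in at least 9 libraries, the patterns closest to the members differed accordingly. For miR-23b-3p they were miR-183-5p (r = 0.97, rho 0.79), miR-195a-5p (0.97, 0.60) and miR-3472 (0.96, 0.73), and for miR-23a-3p miR-320-3p (0.915, 0.955), miR-500-3p (0.85, 0.82) and miR-421-3p (0.82, 0.855). For miR-24-3p they were miR-21a-5p (0.97, 0.96), miR-145a-5p (0.97, 0.96) and miR-451a (0.96, 0.945). For miR-27a-3p they were miR-21a-5p (0.93, 0.90), miR-10b-5p (0.92, 0.86) and let-7a-5p (0.90, 0.89), and for miR-27b-3p miR-9-5p (0.905, 0.945), miR-200b-3p (0.885, 0.96) and miR-26a-5p (0.86, 0.90). Each r is over 11 libraries. Of these 15 places, only those of miR-145a-5p (stromal), miR-451a (blood) and miR-200b-3p (epithelial) went to markers of the lists above. The other places went to features outside those lists. miR-24-3p had 0 reads in all 4 oocyte and 2PN libraries, where its log2 CPM is set by the added 0.5 reads and by depth.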

How the data were processed

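Small RNA libraries from sperm, oocytes and 2PN embryos were grouped by the titles in the labels, which give 3 Drosha cKO sperm libraries where the series description speaks of duplicates. The deposited table of counts holds raw reads per mature miRNA (1592) or endo-siRNA (712). The authors' RPM table equals those counts divided by 1 whole number per library, to within 0.0054; no source used here says what that divisor counts. Bowtie and mm10 are named in the submitters' processing notes, without version or counting rule.

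Sperm comparisons used edgeR 4.0.16 (R 4.3.3) on the counts of all 7 sperm libraries, with TMM factors (0.497 to 1.30), the default expression filter (335 features) and the two-sided quasi-likelihood test, adjusted by Benjamini-Hochberg at 0.05; SEs were taken from the log2 change and the F statistic. The code was tested on simulated data. Oocyte and 2PN libraries, 1 each, got exact intervals (scipy 1.17.1) and a floor of 3 reads; CPM correlations used a prior of 0.5 reads. DESeq2 1.42.0, limma 3.58.1 on log2(RPM + 1), other scalings and filters, left-out libraries and a replicate block were tried. Replicates differed beyond counting error (chi-square per degree of freedom 5.74 to 42.0). Named features were the members, the other products of their hairpins, seed sharers and the 3 closest patterns; the members and lists were chosen with earlier results of these data known. The genome in the reference set, on another build, was not used here.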

Additional observations from a re-analysis of the deposited data

Results flagged for a closer look

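By CPM both miR-23 forms lay above WT in knockout sperm and below WT in 2PN embryos. For miR-23b-3p the 2PN libraries stood at 0.488 of the WT 2PN library for Dicer and 0.413 for Drosha. Its fitted log2 changes in sperm were below 0 (-0.12 for Dicer and -0.57 for Drosha), with intervals that include 0. For that reason only miR-23a-3p was flagged, and the values below are its own. By CPM every Dicer cKO and Drosha cKO sperm library lay above both WT sperm libraries. The 2PN libraries stood at 0.191 of the WT 2PN library for Dicer and 0.194 for Drosha. By RPM the Dicer cKO sperm libraries still lay above both WT libraries, but the Drosha cKO libraries, at 85.2, 60.6 and 98.1 RPM, lay between the WT values of 28.8 and 116 RPM. The fitted log2 change in sperm was 1.76 for Dicer (edgeR adjusted p = 0.0161). For Drosha it was 0.46 and not called (edgeR adjusted p = 0.475), with a range of -0.30 to 0.81 over libraries left out in turn, so no direction is given. The difference between sperm and 2PN embryos was not tested, since each 2PN group is 1 library, and the 2PN values are those that chose this miRNA.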

How the results depend on the processing

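The call of miR-23a-3p in Dicer cKO against WT sperm held in 14 of 18 alternatives. Of the 5 members, those called for Dicer against WT (main 1) numbered 3 with library totals alone and 2 with a mean of at least 200 CPM, with DESeq2, with limma, with the 2 groups alone and with the replicate block. For Drosha against WT, 3 members were called with library totals alone, where 134 of all 335 features were called higher (main 74). Calls over all features were 112 without a low-count filter (main 185). For Dicer against Drosha, calls over all features (main 0) numbered 13 with library totals, 1 with the authors' divisor, 1 without a filter, 3 at 200 CPM, 18 with DESeq2, 2 with limma, 31 with the 2 groups alone and 8 with the replicate block; 1 member was called with the 2 groups alone.

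For Dicer against WT, the log2 change of miR-23b-3p turned to 0.62 with library totals, 0.52 with the divisor, 0.49 without a filter, 0.86 with limma and 0.35 with the 2 groups alone; miR-24-3p was called at 1.55 with library totals; miR-27a-3p was called at 2.34 with library totals, 1.62 at 200 CPM, 1.45 with DESeq2, 2.51 with limma, 2.05 with the 2 groups alone and 1.63 with the replicate block. For Drosha against WT, library totals gave calls of 1.41 for miR-23a-3p, 1.34 for miR-27a-3p and 1.66 for miR-27b-3p and turned miR-23b-3p to 0.42. miR-24-3p turned to -0.04 with miRNAs alone and -0.06 with the 2 groups alone, and without both shallow Drosha cKO libraries miR-27a-3p turned to -0.23 and miR-27b-3p to -0.48. For Dicer against Drosha, miR-23a-3p was called at 1.33 with the 2 groups alone, and miR-27b-3p turned to -0.26 with library totals and -0.07 at 200 CPM. The median of all tested features moved too. For Dicer against WT (main 0.03) it was 0.62 with library totals, 0.88 with the divisor and 0.72 with limma. It was -1.23 without a filter and 0.36 with the 2 groups alone. The cause of these shifts was not tested.

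Leaving out each sperm library gave 112 to 174 calls and 0 to 2 members for Dicer against WT, 153 to 185 calls and 0 members for Drosha against WT, and 0 to 39 calls and 0 to 2 members for Dicer against Drosha, with 36 calls without WT replicate 1 and 39 without WT replicate 2. Ranges of log2 change for Dicer against WT were 1.41 to 1.94 for miR-23a-3p, -0.53 to 0.07 for miR-23b-3p, 0.23 to 1.33 for miR-24-3p, 1.04 to 1.77 for miR-27a-3p and -0.10 to 1.20 for miR-27b-3p. For Drosha against WT they were -0.30 to 0.81, -1.41 to -0.27, -0.53 to 0.55, -0.61 to 0.66 and -0.63 to 1.17 in the same order. For Dicer against Drosha they were 1.06 to 1.84, 0.30 to 0.88, 0.53 to 1.23, 1.07 to 1.90 and -0.28 to 0.66.

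With RPM, ratios to the 2PN library from WT sperm were 0.100 and 0.256 for Dicer and 0.383 and 0.814 for Drosha (miR-23a-3p, then miR-23b-3p), those of Dicer over Drosha 0.261 and 0.315, and that of the WT 2PN library over oocytes turned to 0.993 for miR-23b-3p. RPM ratios of oocytes to WT sperm replicates 1 and 2 were 2.67 and 0.663 for miR-23a-3p, turned against replicate 2, 10.3 and 2.02 for miR-23b-3p and 0.241 and 0.0267 for miR-27b-3p; without miR-30c-5p in the totals those of miR-23a-3p were 16 and 18.4 and those of miR-23b-3p 61.7 and 56.2. Members with higher, non-overlapping groups by RPM, an alternative chosen after seeing the data, numbered 3 for Dicer against WT (main 5), 0 for Drosha against WT (main 4) and 4 for Dicer against Drosha (main 2). Over all tested features the shares were 43.6% (main 46.3%), 24.5% (main 42.1%) and 44.5% (main 15.2%) in the same order. Of the 3 closest patterns, RPM kept 1 for miR-23a-3p and 1 for miR-27a-3p; sperm libraries alone kept 0 for miR-23a-3p, miR-23b-3p and miR-27a-3p and 1 for miR-24-3p and miR-27b-3p.

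The labels do not say that replicate numbers pair the libraries. Same-numbered libraries deviated together weakly, with correlations of 0.181 to 0.312, and 2 shared numbers per comparison are too few to settle a pairing; with the replicate block miR-27a-3p was called for Dicer against WT (edgeR adjusted p = 0.0204, against 0.0529 without it). The oocyte and 2PN libraries, at 2951 to 8967 listed reads and 1 library each, limit what can be said of miR-24-3p and miR-27.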
